A study of Mus musculus with 14 samples.

Results

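A stretch of 50 Mb of mouse chromosome 8 that starts at 65 Mb (mm10) was examined in CTCF and H3K27ac ChIP-seq peak lists from cells with wild-type CTCF (WT) and from cells whose CTCF carries the K20R substitution. It was selected on measured values, because the K20R libraries had shown higher CTCF signal there, so the comparisons of K20R with WT inside it are descriptions without a test. Its members are all peaks whose start lies in the stretch: 11345 of 445683 CTCF peaks in 8 lists and 2859 of 84300 H3K27ac peaks in 2 lists, together 14204 of 529983 intervals. After merging overlapping CTCF peaks across the 8 lists, 2192 of 86652 sites lay in the segment, and 928 of these were called in all 8 lists, against 36440 in the whole series.

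The cells were mouse embryonic stem cells of the E14Tg2A line, kept on inactivated fibroblast feeders with serum, leukemia inhibitory factor and 2 inhibitors (2i). In the K20R cells, lysine 20 of CTCF was changed to arginine with CRISPR/Cas9, and how many clones were used is not given in the sources used here. Day 0 is the stem cell state, and day 4 is after differentiation in hanging-drop embryoid bodies without leukemia inhibitory factor. CTCF was profiled in 2 replicates per genotype and day, H3K27ac in 1 library per genotype at day 4, and 4 input samples were not analysed here.

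CTCF is a zinc-finger protein that binds a long, GC-rich DNA motif and, together with cohesin, holds the bases of chromatin loops. Its binding sites mark many boundaries between chromatin domains, and it also binds near gene start sites. H3K27ac, acetylation of lysine 27 of histone H3, marks active promoters and enhancers.

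The CTCF motif matches below are shown because they carry the sites to which the values return: the sites next to the start sites of Ctcf, Irx5 and Thap11, and the 5 sites with the largest gain in rank in K20R. Each is 41 bases of the mm10 reference, 5′ to 3′ on the strand of the motif, with the 19-base match in capitals. The match was scored with a matrix built from the strongest peaks themselves, whose consensus was NNGCCACCAGGGGGCGCNN.
Ctcf, chr8:105636745-105636785, plus strand: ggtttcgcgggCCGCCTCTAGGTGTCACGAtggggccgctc
Irx5, chr8:92359982-92360022, plus strand: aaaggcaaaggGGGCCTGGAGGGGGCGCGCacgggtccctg
Thap11, chr8:105854756-105854796, plus strand: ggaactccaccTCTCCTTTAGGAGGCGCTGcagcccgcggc
Site near Cilp2, chr8:69874337-69874377, plus strand: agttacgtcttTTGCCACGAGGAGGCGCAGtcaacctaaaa
Site near Capns2, chr8:92926279-92926319, plus strand: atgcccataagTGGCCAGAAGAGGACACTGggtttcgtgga
Site near 4921524J17Rik, chr8:85456709-85456749, plus strand: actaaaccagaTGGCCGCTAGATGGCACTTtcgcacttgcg
Site in an intron of Drc7, chr8:95067780-95067820, plus strand: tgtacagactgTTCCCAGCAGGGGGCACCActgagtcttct
Site in an intron of Nfatc3, chr8:106077637-106077677, minus strand: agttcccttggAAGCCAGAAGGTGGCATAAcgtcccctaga

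The 8 CTCF lists held between 41360 and 77657 peaks, and between 1096 and 1880 of these lay in the segment. The longest list was WT day 0 replicate 1 and the shortest was K20R day 4 replicate 1. The lists carry no read numbers, but fold enrichment and p-value together gave a whole-number summit pileup, the number of overlapping fragments at the summit, for 100% of peaks. Medians over the sites called in all 8 lists lay between 32 and 56 fragments outside the segment, so pileups were divided by each library's own median there.

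CTCF summit pileup in the segment, relative to the sites outside it, was higher in every K20R library than in every WT library, at both days. The pileup is not divided by the local control. The median summit pileup over the 928 sites, divided by the median at the sites outside the segment ("elsewhere"), was 0.982 and 1.0 in WT day 0 and 0.975 in both replicates of WT day 4. K20R gave 1.39 and 1.37 at day 0, and 1.26 and 1.34 at day 4. The genotypes did not overlap, and the gap between them exceeded the spread of replicates. The ratio of K20R to WT was 1.39 at day 0 and 1.34 at day 4, with SDs over the 4 library pairs of 0.0188 and 0.0444.

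The same sites also ranked higher in K20R. The median percentile rank of fold enrichment, taken in each library among the 36440 sites called in all 8 lists, was 46.7 and 49.4 in WT day 0, 58.8 and 59.0 in K20R day 0, 47.4 and 48.6 in WT day 4, and 54.6 and 58.3 in K20R day 4. The segment's sites thus sat near the middle of those sites in WT and above it in K20R. The difference of the medians was 10.8 percentile points at day 0 (SD 1.58 over library pairs) and 8.45 at day 4 (SD 2.22). The median of the differences per site was smaller, 6.09 at day 0 and 4.73 at day 4. The segment held 2.42 ± 0.0198% of all peaks in the 4 WT lists and 2.71 ± 0.0530% in the 4 K20R lists (SD, n = 4).

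**Figure D1:**
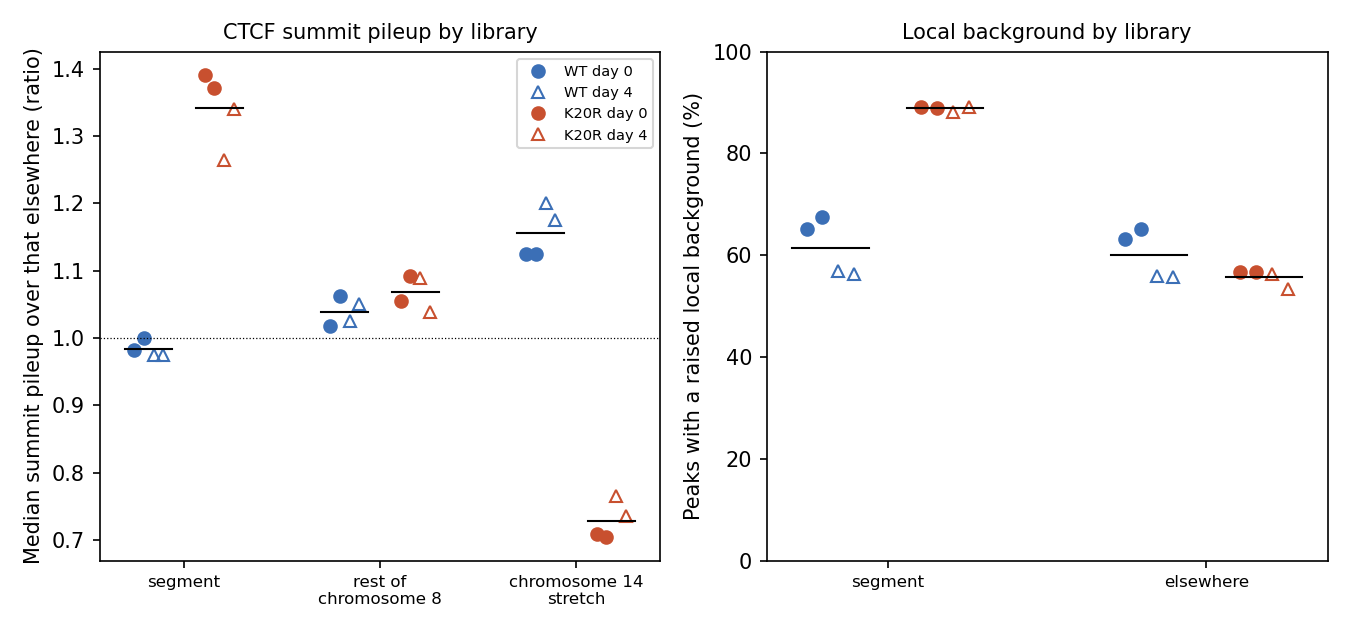
Left, median CTCF summit pileup in the segment, the rest of chromosome 8 and a chromosome 14 stretch, divided by the median outside the segment; right, the percentage of CTCF peaks whose local background was raised. Each point is a library (filled circles day 0, open triangles day 4, blue WT, red K20R) and each black line is the mean of 4 libraries, and in the segment the K20R points lie at 1.26 to 1.39 while the WT points lie at 0.975 to 1.0.

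The local background behind the peaks was higher in the segment as well. MACS2 sets this background for each peak from the control reads around it, with a genome-wide floor, and a background was called raised when it lay more than 5% above the floor of its list. In the segment, raised backgrounds were found at 65.2 and 67.6% of peaks in WT day 0, at 56.9 and 56.2% in WT day 4, at 89.1 and 89.0% in K20R day 0, and at 88.1 and 89.2% in K20R day 4. Outside the segment the range was 55.7 to 65.2% in WT and 53.4 to 56.7% in K20R. The segment-over-elsewhere ratio was 1.56 times as high in K20R as in WT.

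The 2 replicates of a group did not give independent backgrounds. At sites whose summits lay within 5 bp of each other, the backgrounds of replicates correlated with r of 0.968 to 0.984 in the 4 groups. Between lists of different groups r was 0.0790 to 0.211. These are correlations across sites of lists that use shared control reads, so the background stands for 1 control per genotype and day. The number of DNA copies of the segment was not measured in the lists, and its part in the pileup and in the background was not tested.

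Within the segment the higher signal was widespread rather than carried by a few sites. Of the 928 sites, 77.4% had a mean log2 pileup difference above 0, against 55.9% of the other 35512 sites. The median difference was 0.50 at day 0 and 0.52 at day 4 (log2, relative to each library's median elsewhere), that is 1.41- and 1.43-fold, and the quartiles at day 4 were 0.02 and 0.85. All 4 K20R libraries lay above all 4 WT libraries in relative pileup at 414 sites (44.6%), beside a background of 14% over all sites called in all lists. The reverse was found at 24 sites (2.59%), beside a background of 10.5%. By rank, all 4 K20R libraries lay above all 4 WT libraries at 144 sites (15.5%), beside 6.86% over all sites. Since the segment was chosen on this contrast, the counts are read no further.

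Within the segment, the size of the difference varied with the strength of the site. The same classes were not measured elsewhere, so this variation is not shown to be particular to the segment. The study reports relatively weak binding at the sites where CTCF was reduced in K20R embryoid bodies. When sites were divided by their mean WT pileup at day 0, with limits at the tertiles of all sites, the day 4 median log2 difference was 0.05 for 330 sites of the lowest tertile, 0.50 for 286 of the middle and 0.84 for 312 of the highest. The 234 sites within 3 kb of a start site had a day 4 median of 0.58, and the 694 sites farther away had 0.50. The 248 sites overlapping an H3K27ac peak of either genotype had 0.65, and the 680 without had 0.48. The interquartile ranges of the lowest and the highest tertile did not overlap, while those of the start-site and H3K27ac classes did.

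The sequence under the sites was close to that elsewhere. The CTCF motif was found at 89.9% of the segment's 928 sites (95% Wilson interval 87.8 to 91.7%), at 91.4% of sites on the rest of chromosome 8 (89.5 to 93.0%) and at 91.8% of 34462 other sites with sequence (91.5 to 92.1%). The median GC content of the 201-base windows around the summits was 49.3%, against 48.3% at all other sites. The motif lay in a repeat at 28.3% of segment sites and at 28.6% of the others. Start sites lay within 3 kb of 25.2% of the segment's sites (22.5 to 28.1%), against 17.5% on the rest of chromosome 8 (15.3 to 20.0%) and 22.9% of all other sites. Within the segment, sites with a motif had a day 4 median log2 difference of 0.58, and the 94 without had 0.20. This split was not measured elsewhere.

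In steps of 1 Mb, the difference was present across nearly the whole stretch. Of 41 windows of the segment with at least 5 sites, the median relative pileup of all 4 K20R libraries lay above that of all 4 WT libraries in 31, and none showed the reverse. Over the genome this was found in 10.5% of 1909 such windows, and on the rest of chromosome 8 in 10 of 56, with 4 of 56 the other way. By stretches of 10 Mb the day 0 median log2 difference was 0.49, 0.52, 0.54, 0.58 and 0.41 from the centromeric to the telomeric side, and at day 4 it was 0.46, 0.50, 0.65, 0.64 and 0.41. The last of these stretches includes the windows beyond 112 Mb.

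**Figure D2:**
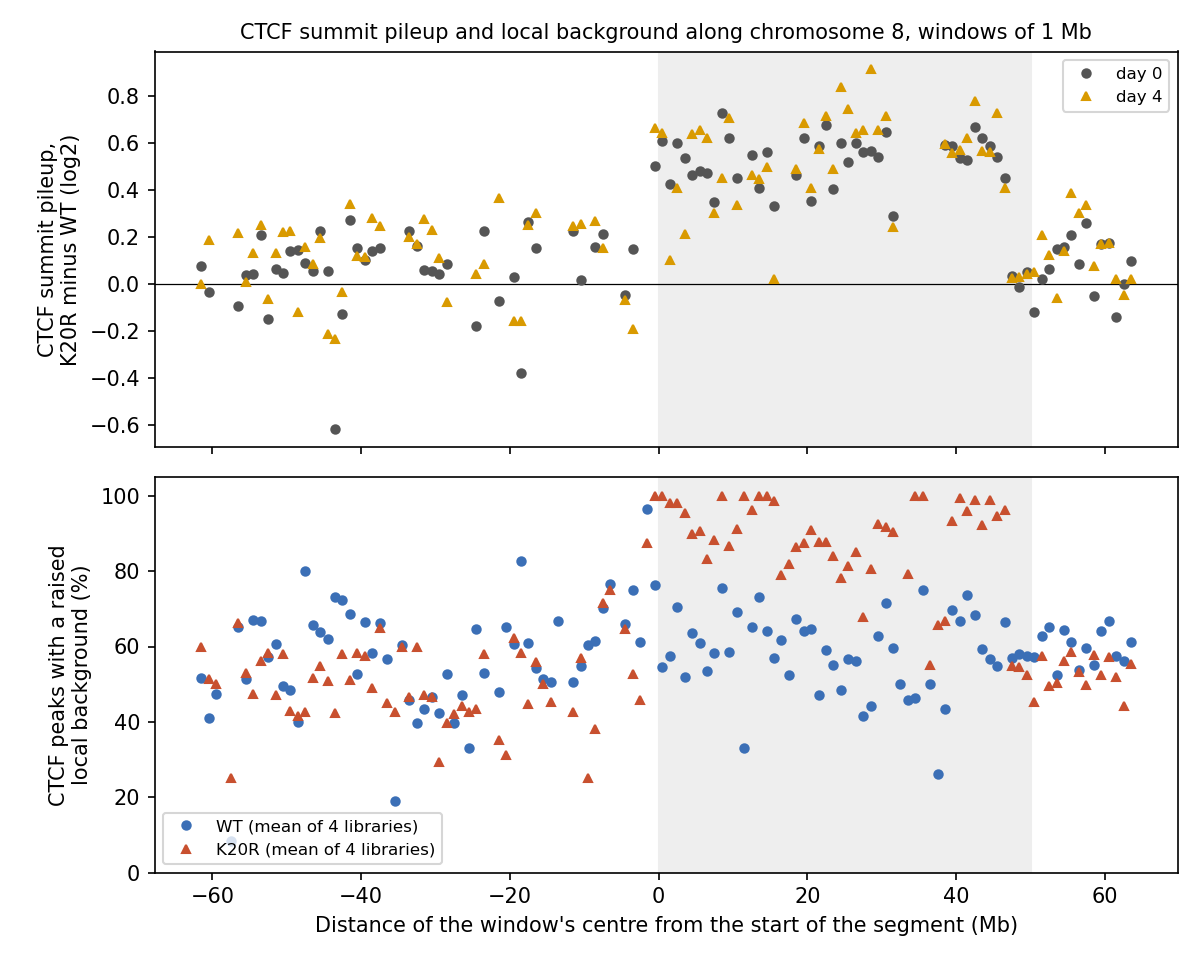
Top, median log2 difference in relative CTCF summit pileup (K20R minus WT) in 1 Mb windows of chromosome 8 with at least 5 sites, against distance from the segment's start; bottom, the percentage of CTCF peaks with a raised local background (means of 4 libraries). Grey marks the segment; both measures step up about 1 Mb before it and fall back 3 Mb before its end.

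The distal edge was sharp. The 3-piece fit placed the right break point at 111.7 Mb for the log2 pileup in all 8 pairs of a WT and a K20R library, and at 111.7 Mb for the mean rank, with 109 to 122.9 Mb over the pairs. The H3K27ac peak number gave 112 Mb. Among peaks with -log10 q of at least 5 its break points lay at 91 and 91.7 Mb, so this edge was not recovered there. That stricter set held 285 WT and 336 K20R peaks in the segment, and why the break points moved was not tested. The 1 Mb window that starts at 110 Mb held 30 sites with a median log2 difference of 0.54 at day 0 and 0.73 at day 4, the window at 111 Mb held 35 sites with 0.45 and 0.41, and the window at 112 Mb held 20 sites with 0.03 and 0.03. In steps of 100 kb, raised backgrounds in K20R fell from 100% of peaks at 111.8 Mb to 82.4% at 111.9 Mb, 77.9% at 112.0 Mb and 41.7% at 112.1 Mb, steps of at most 7 sites each. In the 1 Mb windows at 111 and 112 Mb, raised backgrounds stood at 96.2 and 54.9% in K20R and at 66.5 and 56.9% in WT, and H3K27ac peaks at 144 and 5 in K20R and at 90 and 7 in WT. The fitted pileup break point was 111.7 Mb, but single 100 kb steps did not fall cleanly there. The step at 111.7 Mb held 2 sites with median log2 differences of 0.03 at day 0 and -0.40 at day 4. Steps at 111.8 and 111.9 Mb held 7 and 4 sites, with 0.50 and 0.26 at day 0 and 0.37 and 0.08 at day 4. All 4 K20R libraries still lay above all 4 WT libraries in both steps. At 112.0 Mb, 7 sites had 0.13 and -0.07. The share of raised backgrounds fell between 111.9 and 112.1 Mb, and no break point was fitted to the background.

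The proximal edge was less certain. The log2 pileup gave 64 Mb, with 62.1 to 67.9 Mb over the 8 library pairs, and the rank gave 62.1 Mb, with 47.0 to 66.7 Mb over the pairs. H3K27ac gave 70 Mb. Few CTCF sites lie there: the windows at 62 and 63 Mb held 2 sites each. The window at 64 Mb, just outside the rule, already held 11 sites with a median log2 difference of 0.50 at day 0 and 0.66 at day 4, and all 4 K20R libraries lay above all 4 WT libraries in it. Raised backgrounds stood at 87.5% of peaks in K20R and 96.4% in WT in the sparse 63 Mb window, at 100% and 76.2% in the 64 Mb window, and at 100% and 54.5% in the 65 Mb window.

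The limits of the rule therefore do not coincide with the edges. Just inside the left limit, the 7 sites from 65 to 66 Mb had median log2 differences of 0.61 at day 0 and 0.65 at day 4. Just inside the right limit, the 25 sites of the last 1 Mb had 0.05 and 0.04, and the 6 sites of the next 1 Mb had -0.12 and 0.05. Between the pileup's break points of 64 and 111.7 Mb, 869 sites had medians of 0.54 and 0.58. The 62 sites in the 10 Mb before had 0.06 and -0.07, and the 276 sites in the 10 Mb after had 0.08 and 0.17.

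A stretch of chromosome 14 from 40 to 70 Mb went the other way. Its 455 sites had relative median pileups of 1.12 to 1.20 in the WT libraries and 0.704 to 0.765 in the K20R libraries, with a median log2 difference of -0.67 over both days. The rest of chromosome 8 lay at 1.02 to 1.06 in WT and 1.04 to 1.09 in K20R, where the genotypes overlapped. Chromosome X had a median log2 pileup difference of 0.07, equal to that of all sites outside the segment (0.07), while its median rank difference per site was 5.85 percentile points, beside 5.78 in the segment. By rank the segment was thus not above chromosome X. The difference between stretches was not tested.

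The contrast of the days was not used to choose the segment. The median rank at day 4 minus that at day 0 was -1.25 percentile points over both genotypes (two-sided exact permutation test of the day labels within genotype, p = 0.39). Ranked by -log10 p it was -3.15 (exact permutation p = 0.056) and among peaks with -log10 q of at least 5 it was -2.16 (exact permutation p = 0.11). For the log2 relative pileup it was -0.05 (p = 0.056 in the same exact test, the smallest p that the 36 arrangements allow). WT fell by 0.02 and K20R fell by 0.08 on the log2 scale, each with an exact p of 0.33, the smallest that 2 against 2 libraries allow. The design thus could not reach 0.05, and whether the day effect differed between genotypes was not tested.

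In the full lists, more CTCF sites of the segment were lost than gained as calls, a direction that reversed with lists of equal length. Sites called in both WT libraries and in no K20R library at day 4 numbered 178 of 1308 (13.6%, Wilson interval 11.9 to 15.6%), beside a background of 18.8% over all sites. At day 0 they numbered 50 of 1231 (4.06%), beside 7.69%. Sites called in both K20R libraries and in no WT library numbered 11 of 1036 (1.06%) at day 4, beside 0.536%, and 13 of 1271 (1.02%) at day 0, beside 0.426%. Of the 2192 merged sites, 0 were called in all 4 K20R lists and in no WT list, beside 0.00577% of all merged sites, and 15 were called in all 4 WT lists and in no K20R list, beside 1.42%.

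The balance of lost and gained sites depended on list length. The K20R day 4 lists were the shortest, and with every list limited to its 41360 strongest peaks, 25 of 894 sites (2.80%) were lost at day 4 and 89 of 989 (9.0%) were gained, while 5.63% and 4.89% of all sites were. Leaving out a day 4 library turns called in both, or in neither, into a condition on 1 library. That rule is looser, so part of any rise is built in, and the shares over all sites were not measured under it. The lost share was 22.5% without K20R day 4 replicate 2, 15.2% without K20R day 4 replicate 1, and 20.0% and 18.9% without WT day 4 replicates 1 and 2. Leaving out K20R day 4 replicate 1, the shortest list, gave a gained share of 9.17%. The gained share was 3.38% without WT day 4 replicate 1, 1.83% without WT day 4 replicate 2 and 2.59% without K20R day 4 replicate 2.

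The 5 sites that gained most in rank had higher pileups in every K20R library of a day than in the WT libraries of that day. The site near Cilp2 (chr8:69874059-69874796, between genes) had 70 and 44 fragments in WT day 0, 133 and 122 in K20R day 0, 58 and 57 in WT day 4, and 97 and 162 in K20R day 4. Its local background was 1.89 and 1.98 in WT day 0 but 0.733 and 0.735 in K20R day 0. The site in an intron of Nfatc3 (chr8:106077335-106077819), a calcium-responsive transcription factor gene, had 54 and 24 fragments in WT day 0, 83 and 78 in K20R day 0, 18 and 20 in WT day 4, and 33 and 52 in K20R day 4. The sites near Capns2 and 4921524J17Rik and in an intron of Drc7, a gene of the ciliary dynein regulatory complex, had mean log2 pileup differences of 0.92, 0.79 and 0.62. At all 5 sites the WT day 0 background exceeded the K20R day 0 background, opposite to the segment as a whole. Choosing sites by their gain in rank favours this, since fold enrichment is a ratio to the local control.

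The 5 sites that lost most in rank had the higher day 0 background in K20R at 4 of 5. The site in an intron of Sntb2 (chr8:107002354-107002864) had more fragments in K20R day 0 (164 and 147) than in WT day 0 (116 and 83), yet its day 0 rank fell by 39.7 percentile points. Its background was 0.945 and 0.746 in WT day 0 and 3.85 in both K20R day 0 libraries. The site next to Jund, which encodes an AP-1 subunit, fell by 32.9 points in rank at day 0 with 45 and 50 fragments in WT and 54 and 65 in K20R, and its background was 1.42 and 1.49 in WT against 3.85 in K20R. The site in an intron of Cacna1a, a calcium channel subunit gene, had 41 and 51 fragments in WT day 4 and 11 and 40 in K20R day 4. The sites near Pmfbp1 and Fcho1 had mean log2 pileup differences of -0.52 and -0.90. Fold enrichment is a ratio to the local control, so the background enters the rank by definition. Choosing sites by their loss in rank thus favours a higher background in K20R. How much of each rank difference the background makes up was not tested.

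The strongest lost sites had fewer fragments in WT day 4 than the median of 40 outside the segment. That median covers sites called in all 8 lists, which excludes lost sites. The site in an intron of Fam192a (chr8:94584526-94584769) had 34 and 25 fragments in WT day 4, the site near Prss54 had 27 and 26, and the site near Herpud1 had 17 and 30, and none was called in K20R day 4. Their percentile ranks in the WT day 4 lists were 70.9 and 57.7, 60.8 and 59.2, and 42.0 and 65.2. All 3 were called in both WT day 0 libraries and in at least 1 K20R day 0 library. The strongest gained sites lay in an exon of Nxnl1 (13 and 24 fragments in K20R day 4), in an intron of Cbfb (20 and 25) and in an exon of Psmd7 (16 and 15), 21 bases from a start site of this proteasome subunit gene. The Nxnl1 and Cbfb sites were called in all 4 libraries of day 0, so of these 3 only the Psmd7 site lacked a WT call at both days.

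H3K27ac peaks were more numerous in K20R across the segment. The WT library had 1049 peaks there and the K20R library 1810, a ratio of 1.73, while outside the segment the numbers were 37933 and 43508, a ratio of 1.15. The excess relative to elsewhere was 1.504-fold (exact binomial interval 1.39 to 1.62), an interval that covers counting error only, since each genotype has 1 library. The peaks covered 1.57 Mb in WT and 3.01 Mb in K20R, with median widths of 903 and 926 bases. In windows of 1 Mb with at least 10 peaks, K20R had more peaks than WT in 34 of 37 windows of the segment and in 29 of 42 on the rest of chromosome 8.

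**Figure D3:**
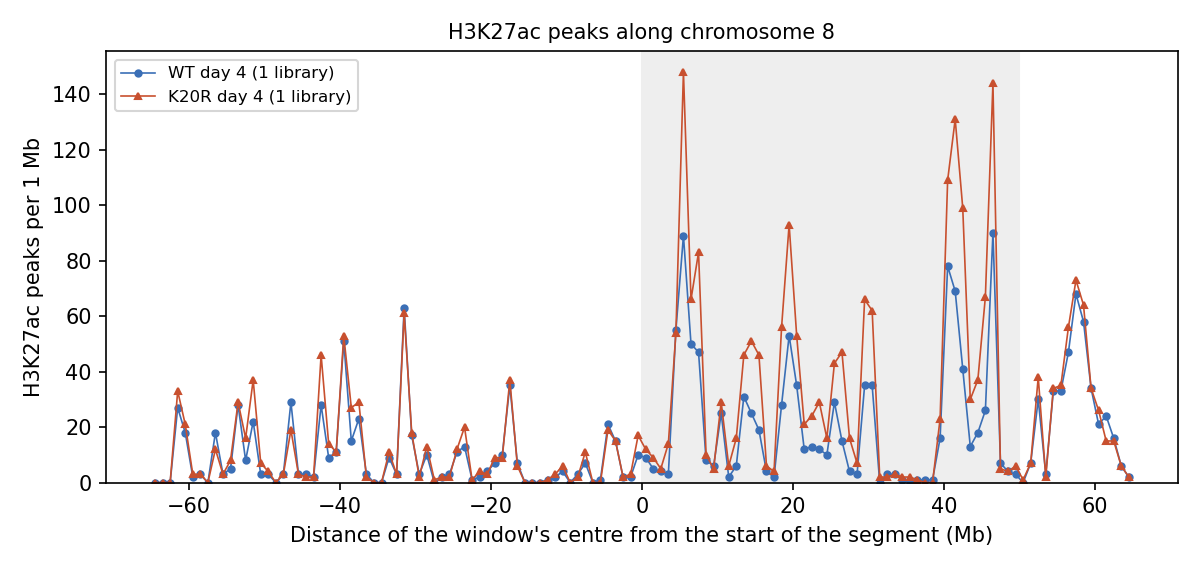
Number of H3K27ac peaks at day 4 in 1 Mb windows of chromosome 8, against distance from the segment's start, for the WT library (blue circles) and the K20R library (red triangles). Grey marks the segment, in which K20R totals 1810 peaks and WT 1049; on the rest of the chromosome K20R has more peaks in 29 of 42 windows with at least 10 peaks, with a median ratio of 1.10 against 1.77 in the segment.

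Relative to elsewhere, the H3K27ac excess of K20R in the segment was larger away from start sites and smaller among the stronger peaks. Of 2003 merged intervals in the segment, 1078 (53.8%) were called in K20R only, beside 36.5% over all intervals, and 229 (11.4%) in WT only, beside 24.7%. Peaks farther than 3 kb from a start site numbered 615 in WT and 1244 in K20R, and those nearer 434 and 566. Elsewhere the farther peaks numbered 23290 and 27956 and the nearer 14643 and 15552, so added peaks lay mostly away from start sites there too. The relative excess was 1.69-fold for farther and 1.23-fold for nearer peaks. Among peaks with -log10 q of at least 5 there were 285 in WT and 336 in K20R, against 9720 and 9678 elsewhere, a relative excess of 1.18-fold. The intervals called in K20R only were not divided by strength or distance. At the 696 intervals called in both genotypes, the median log2 ratio of fold enrichment was 0.00, the same as elsewhere. Fold enrichment is a ratio to the local control, so it says nothing of a level that signal and control share.

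The widest peaks found in K20R only lay near Mcm5, a subunit of the replicative helicase (chr8:75098101-75106828, 8728 bases, fold enrichment 3.03), at an exon of Terf2, a telomere-binding factor (6111 bases), in introns of Chd9, a chromatin remodeler (5838 bases), and Cyb5b (5108 bases), and in an intron of Tmem161a (4813 bases). The widest found in WT only lay in introns of Slc5a5 (4697 bases), the sodium iodide symporter, Upf1 (3853 bases), Terf2 (1995 bases), Aktip (1756 bases) and Cdh11 (1731 bases). All 10 had fold enrichments between 2.86 and 3.22, so none was a strong peak.

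Markers of the embryoid body state differed between the same 2 H3K27ac libraries. Peaks near the start sites (3 kb) were found at 3 of 5 pluripotency genes in WT (Pou5f1, Nanog, Sox2) and of 4 of 5 in K20R (these and Klf4). It was found at 3 of 5 mesoderm genes in WT (T, Eomes, Fgf8) and at 0 of 5 in K20R, at 0 of 3 endoderm genes in both and at 1 of 3 neural genes (Nes) in both. The part of this difference in the H3K27ac peaks of the segment was not tested.

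Gene start sites followed the peak numbers only in part. Of 522 protein-coding genes in the segment, 339 carried H3K27ac at a start site (3 kb on either side) in both genotypes and 144 in neither. Over all 21911 genes, 10702 carried it in both and 9798 in neither. In 35 genes (6.70%) the peak was found in K20R only, beside a background of 3.85% over all genes. In 4 of the 522 genes it was found in WT only, beside 568 of 21911 (2.59%).

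Developmental genes of the segment were taken from 5 groups, 65 genes in all. H3K27ac lay at the start sites of 39 of them in both genotypes, of 7 in K20R only (10.8%, beside 3.85% of all genes and 6.70% of the segment's genes), of 3 in WT only (4.62%, beside 2.59% of all genes) and of 16 in neither. Of the segment's 522 genes, 339 carried it in both genotypes, 4 in WT only and 144 in neither. Within 10 kb of the genes, K20R had more peaks at 41 (63.1%), beside 30% of all genes and 61.3% of the segment's genes. It had fewer at 8 (12.3%), beside 17.8% and 11.3%. The peaks within 10 kb numbered 386 in K20R and 233 in WT, beside 1810 and 1049 in the whole segment. The totals of single groups below stand beside the same segment-wide excess, and no group was tested against it. CTCF sites called in all lists lay within 10 kb of 58 genes, and the gene's median log2 pileup difference was above 0 in 47 of these, with a median of 0.58. All 4 K20R libraries lay above all 4 WT libraries at 85 of 169 such sites (50.3%), beside 14% of all sites and 44.6% of the segment's sites. In both measures the listed genes were thus close to the segment as a whole.

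**Figure D4:**
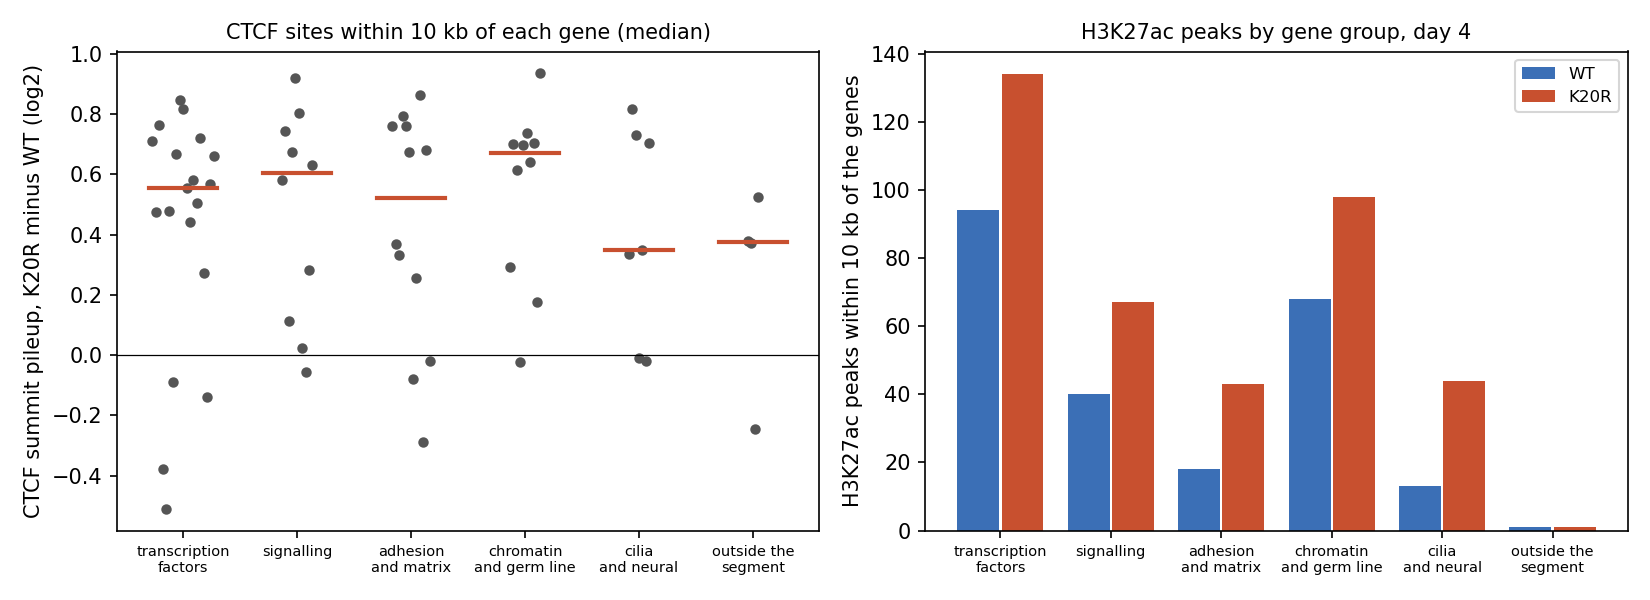
Left, median log2 difference in relative CTCF summit pileup (K20R minus WT, both days) over the sites within 10 kb of each listed gene, 1 point per gene, with red lines at group medians; right, total H3K27ac peaks within 10 kb of the genes of each group at day 4 (1 library per genotype). In all 5 groups of the segment the CTCF median lies above 0 and K20R has more H3K27ac peaks; the genes outside the segment also have a CTCF median above 0, over 4 genes, and 1 H3K27ac peak in each genotype.

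The transcription factor group counted 23 genes, 19 with a CTCF site and a group median of 0.55, and its H3K27ac peaks within 10 kb numbered 94 in WT and 134 in K20R. Irx3 (chr8:91798525-91802067, minus strand) and Irx5 (chr8:92357625-92376286, plus strand), Iroquois homeobox genes that act in neural, cardiac and limb patterning, had an H3K27ac peak in K20R only, with fold enrichments of 3.15 and 3.79. The CTCF site within 10 kb of Irx3 had 62 and 35 fragments in WT day 0, 79 and 96 in K20R day 0, 41 and 41 in WT day 4, and 60 and 124 in K20R day 4. The Irx5 site, whose motif is printed above, was weak, with 14 and 14 fragments in WT day 0, 15 and 7 in K20R day 0, 19 and 17 in WT day 4, and 14 and 28 in K20R day 4. The Irx3 site was thus higher in K20R, and this Irx5 site, within 3 kb of a start site, overlapped between genotypes. Irx5 had 3 sites called in all lists within 10 kb. At 1 of these, all 4 K20R libraries lay above all 4 WT libraries.

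Thap11, which encodes a zinc-finger factor of stem cell self-renewal, had a CTCF site with a difference above the segment's median. Its site at the start of the gene (chr8:105854487-105855158), 343 bases from a start site, had a pileup relative to the library's median elsewhere of 2.05 and 2.59 in WT day 0, 4.16 and 3.70 in K20R day 0, 1.85 and 1.75 in WT day 4, and 3.41 and 4.25 in K20R day 4. The 4 K20R values lay above the 4 WT values. Thap11 had 2 sites called in all lists within 10 kb, and all 4 K20R libraries lay above all 4 WT libraries at 1 of them. The median log2 difference of these 2 sites was 0.27, below the segment's 0.53. The log2 differences relative to elsewhere were 0.77 and 1.08. H3K27ac at Thap11 had 3 peaks and a fold enrichment of 8.43 in WT, and 2 peaks and 5.11 in K20R. Sall1, a zinc-finger gene of kidney and limb development, had 1 H3K27ac peak in each genotype (fold enrichment 7.07 in WT and 6.07 in K20R) and no CTCF site called in all lists. Tox3 had an H3K27ac peak in WT only (fold enrichment 2.91). By the higher value of either genotype, the highest fold enrichments among the others were those of Rfx1 (10.8 in WT and 11.96 in K20R), Jund (7.53 and 9.49) and Nfatc3 (7.96 and 8.61).

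The signalling group counted 13 genes, with 40 H3K27ac peaks in WT and 67 in K20R. Smad1 (chr8:79338395-79399518, minus strand), which carries BMP signals to the nucleus, had 1 H3K27ac peak in each genotype, with fold enrichments of 9.02 in WT and 9.37 in K20R. Its strongest CTCF site had 66 and 43 fragments in WT day 0, 99 and 111 in K20R day 0, 45 and 45 in WT day 4, and 70 and 80 in K20R day 4. Hhip, a hedgehog-binding antagonist, had no H3K27ac peak in either genotype and no CTCF site called in all lists. Dand5, a Nodal antagonist, had a peak in K20R only (fold enrichment 2.67), and all 4 K20R libraries lay above all 4 WT libraries at 5 of its 6 CTCF sites. Nkd1, an inhibitor of Wnt signalling, had a peak in WT only (2.69). Gipc1 had fold enrichments of 6.85 in WT and 9.59 in K20R, Gdf15 had 5.17 and 7.02, and Jak3 had 5.59 and 4.44.

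The adhesion and matrix group counted 12 genes, with 18 H3K27ac peaks in WT and 43 in K20R. Cdh1 (chr8:106603351-106670246, plus strand), which encodes E-cadherin, had 2 peaks at its start sites in WT and 1 in K20R, with fold enrichments of 7.05 and 7.30, and 7 and 11 peaks within 10 kb. Its strongest CTCF site had 68 and 49 fragments in WT day 0, 90 and 95 in K20R day 0, 54 and 53 in WT day 4, and 53 and 99 in K20R day 4. Relative to each library's median elsewhere, all 4 K20R libraries lay above all 4 WT libraries there. Adgrg1, an adhesion receptor, Mmp2, a matrix metalloproteinase, and Comp, a cartilage matrix protein, had an H3K27ac peak in K20R only, with fold enrichments of 3.40, 3.36 and 2.76. Mmp15, a membrane-bound metalloproteinase, had a peak in WT only (2.86). Adgrl1 had 4.36 in WT and 3.89 in K20R, and Cdh3, which encodes P-cadherin, had 3.03 and 3.20.

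The chromatin and germ line group counted 10 genes, 9 of them with H3K27ac in both genotypes, and its peaks within 10 kb numbered 68 in WT and 98 in K20R. Ctcf itself (chr8:105636568-105682922, plus strand) lies in the segment. Its start sites had 1 H3K27ac peak in WT and 2 in K20R, with fold enrichments of 12.1 and 13.1, and 11 peaks lay within 10 kb in each genotype. The CTCF site 242 bases from a start site had 41 and 30 fragments in WT day 0, 48 and 39 in K20R day 0, 50 and 44 in WT day 4, and 23 and 89 in K20R day 4. Its log2 differences were -0.06 and -0.14, and the genotypes overlapped. Smarca5, a chromatin remodeling ATPase, had fold enrichments of 13.5 in WT and 12.7 in K20R, Brd7, a bromodomain protein, 11.7 and 10.6, and Chd9 9.71 and 7.05. The Brd7 site, 27 bases from a start site, had 74 and 50 fragments in WT day 0, 175 and 165 in K20R day 0, 38 and 30 in WT day 4, and 78 and 197 in K20R day 4. Brd7 had 2 sites called in all lists within 10 kb, with a median log2 difference of 0.70. All 4 K20R libraries lay above all 4 WT libraries at 1 of them.

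The cilia and neural group counted 7 genes, with 13 H3K27ac peaks in WT and 44 in K20R, of which Fto alone had 9 and 34. Fto, an RNA demethylase, and Rpgrip1l, a protein of the ciliary transition zone, are neighbours that share their start region, with fold enrichments of 4.40 in WT and 6.03 in K20R. The shared CTCF site had 34 and 17 fragments in WT day 0, 46 and 48 in K20R day 0, 28 and 25 in WT day 4, and 27 and 57 in K20R day 4. Within 10 kb, Fto had 7 sites called in all lists, with a median log2 difference of -0.01. All 4 K20R libraries lay above all 4 WT libraries at 3 of these. Rpgrip1l had 3 such sites, with a median of 0.70, and this held at 1 of them. Bbs2, a subunit of the BBSome, had 5.31 and 8.14. Ndrg4 had a peak in K20R only (3.10).

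Outside the segment, the 5 genes of the flanks had no H3K27ac peak at their start sites in either genotype. These were Hand2 on the proximal side and Maf, Irf8, Foxf1 and Foxc2 on the distal side, all regulators of mesodermal or blood cell fates. At the CTCF sites of Hand2, Maf, Foxf1 and Foxc2 the median log2 differences were -0.24, 0.53, 0.37 and 0.38, and at none of them did all 4 K20R libraries lie above all 4 WT libraries.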

How the data were processed

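CTCF was profiled in 8 and H3K27ac in 2 libraries, and 4 inputs were not analysed here. Per the labels and the methods of the study, the authors trimmed reads with Trim Galore, aligned them to mm10 with Bowtie2, removed low-quality, duplicate and blacklisted reads, drew equal read numbers for CTCF and called peaks per library with MACS2. The score column that the authors deposited, an integer MACS2 derives for display, was not used. The deposited values used are the fold enrichment, a ratio to the local control, and the -log10 p-value and -log10 q-value of each peak. The methods give 1 equal read number for all CTCF libraries and none was stated for H3K27ac; the lists themselves hold no read numbers, so total depth was not checked.

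From these, a whole-number summit pileup and a local background were solved (tolerance 0.01 in -log10 p or a relative 0.0001). Peaks overlapping by 1 bp were merged into sites, ranks (percentiles among the sites called in all 8 lists) and pileups were compared at those sites, and "elsewhere" means all sites outside the segment. Break points came from a least-squares fit of 3 constants (CTCF) or a binomial likelihood (H3K27ac). Gene positions are from GENCODE M21, which has the build of the lists. Peaks were counted within 3 kb of a start site or 10 kb of a gene, and the CTCF site given for a gene is the one with the highest WT day 0 pileup there. Scripts used Python 3.11.15, NumPy 2.4.6, SciPy 1.17.1 and pandas 2.3.3 and were tested on simulated data. Replicates are described as biological in the study's methods.

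The members, gene lists and tests were chosen with earlier results of these data known. Genes named were Ctcf, Cdh1, Sall1, Irx3, Irx5, Smad1, Hhip and Thap11, those with H3K27ac in 1 genotype only, up to 3 per group with the highest fold enrichment in either genotype, and 5 flank genes. Sites named were the 5 highest and 5 lowest by rank, and the 3 strongest lost and gained. Alternatives were a stricter q, another rank, equal list lengths, other extents of the segment or of elsewhere, covered bases, other break point settings, leaving out each CTCF library and the replicate block. Wilson and exact intervals (95%) cover counting error only.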

Additional observations from a re-analysis of the deposited data

How the results depend on the processing

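Of 65 alternatives that kept all libraries, 48 were counted as unchanged. Where a result had a replicate spread or a counting interval, this meant staying within it. The day effects had neither, so counting them as unchanged says nothing of their size. The day effect in rank went from -1.25 to -3.15 when ranked by -log10 p and was still counted as unchanged. No single value changed sign. The order of lost and gained sites did reverse, with lists of equal length. With -log10 q of at least 5, the H3K27ac excess was 1.18 and its break points moved to 91.0 and 91.7 Mb, so neither H3K27ac edge held among stronger peaks. The cause was not tested for any of these moves. By covered bases the excess was 1.64. Ranked by -log10 p, the rank difference was 15.6 at day 0 and 11.2 at day 4. With lists of equal length, the day 0 share ratio was 1.12, lost sites 2.80% and gained sites 9.0%. From 80 to 110 Mb, the rank difference at day 0 was 12.7, the pileup ratio 1.44 at both days and the day 0 share ratio 1.12. Between the pileup's break points, an extent chosen after seeing the data, the pileup ratio was 1.44 at day 0 and 1.39 at day 4, and the day 0 share ratio 1.12. The day effect in rank was -3.15 (exact permutation p = 0.056, the smallest possible) by -log10 p and -2.16 (exact permutation p = 0.11) at the stricter q. At day 0 only, the left edge by rank was 47.0 Mb.

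Without each CTCF library in turn, the rank difference ranged from 9.41 to 11.3 at day 0 and 6.61 to 9.45 at day 4, the pileup ratio from 1.38 to 1.41 and 1.32 to 1.39, the share ratio from 1.11 to 1.12 and 1.10 to 1.16, and the background ratio from 1.53 to 1.57. Lost sites ranged from 13.6 to 22.5% and gained sites from 1.06 to 9.17%, under a looser rule where a day 4 library was left out. The day effect ranged from -2.30 to -0.28 in rank and -0.11 to -0.03 in log2 pileup. The left edge ranged from 62.1 to 66.7 Mb, with the right edge at 111.7 Mb throughout. With the replicate block, the rank difference was 10.8 and 8.45, the pileup ratio 1.39 and 1.34, the share ratio 1.11 and 1.13, and the day effects -1.25 (exact p = 0.38) and -0.05 (exact p = 0.12), and no call changed. Same-numbered libraries of 6 group pairs correlated with r between -0.03 and 0.34, the highest for WT day 0 with K20R day 4. With 2 replicates per group the deviations are mirror images of each other. Whether the numbers pair the samples was thus not decided.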
